A study of Mus musculus with 4 samples.

Results

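The transcripts of COP1 and of the CUL4 ubiquitin ligase that carries it were followed across cell classes and between genotypes in single-cell RNA sequencing of the embryonic mouse cortex. The 8 genes were chosen by name from 36528 gene rows in each count table: Rfwd2 (the older symbol of Cop1), Det1, Ddb1, Dda1, Cul4a, Cul4b, Rbx1 and Ube2d3. All 8 were present in every table, and none had a row that was duplicated under another name. The cells came from the cortex of C57BL/6 embryos at E16.5, with 2 libraries of genotype HET and 2 of genotype COP1 KO. The alleles behind HET are not defined in the labels, the COP1 KO libraries are titled CKO, and neither a Cre driver nor the deleted part of the gene is given. Each library is described as 1 mouse, so n = 2 mice for each genotype.

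COP1 is a RING-type E3 ubiquitin ligase that binds short motifs in its substrates, among them the transcription factors c-Jun and the ETV family, and marks them for the proteasome. DET1 and DDA1 sit with the adaptor DDB1, which docks onto the cullin scaffold CUL4A or CUL4B, while the RING protein RBX1 at the other end of the cullin recruits a ubiquitin-charged E2 enzyme such as those of the UBE2D group. Tribbles pseudokinases bring further substrates to COP1, and the ligase acts on proteins, so transcript levels alone do not report its activity.

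Promoter sequence is shown for the gene named in the genotypes and for the gene whose level differed most between cell classes, since these are the 2 around which the results turn. Both runs come from RefSeq's promoter windows on GRCm38.p6, plus strand, 5′ to 3′, and stop at the base before the annotated gene. In the first, of Rfwd2 at chr1:159231950-159232155, capitals mark a match to the NRF1 motif. In the second, of Dda1 at chr8:71468944-71469171, capitals mark matches to the CCAAT box.
Rfwd2: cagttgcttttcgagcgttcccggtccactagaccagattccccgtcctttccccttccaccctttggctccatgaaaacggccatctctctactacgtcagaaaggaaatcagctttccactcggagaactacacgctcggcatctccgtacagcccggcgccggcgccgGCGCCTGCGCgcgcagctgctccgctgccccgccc
Dda1: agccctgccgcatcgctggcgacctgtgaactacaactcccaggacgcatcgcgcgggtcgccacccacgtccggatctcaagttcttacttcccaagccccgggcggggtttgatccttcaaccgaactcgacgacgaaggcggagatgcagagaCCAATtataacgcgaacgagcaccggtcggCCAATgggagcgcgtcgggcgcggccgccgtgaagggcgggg

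All 8 genes had a RefSeq window, from 250 bases before to 50 after a start site, and both strands were searched for 5 motifs. The NRF1 motif was found at Rfwd2 and Rbx1, and in 4.60% of all 32851 windows of the same length. The CCAAT box was found at Dda1, Cul4b, Rbx1 and Ube2d3, against 37.4% of windows. The ETS core CCGGAA was found at Det1, Cul4a and Ube2d3, against 14.9% of windows, and the GC box GGGCGG at every gene of the set except Cul4b, against 35.7%. No window of the set held the AP-1 letters TGANTCA, which 7.81% of windows hold. Ube2d3 has 4 start-site windows and so had more sequence to match than the others. These are matches of letters, and no binding was measured here.

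Rfwd2 lies on chromosome 1 at 159232156-159354872 on the plus strand. Ddb1 lies on chromosome 19, Rbx1 on chromosome 15, Det1 on chromosome 7 and Ube2d3 on chromosome 3. Dda1 and Cul4a are both on chromosome 8, at 71469172-71476099 and 13105623-13147940. Cul4b is the one gene of the set on the X chromosome.

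The 4 libraries held 28049007 to 28988265 counts each. Of 19237 barcodes, 18783 cells were kept, 4314 to 5195 per library, with medians of 4505 to 5476 UMIs, the lowest in COP1 KO 1. Mitochondrially encoded genes took a median of 1.13% to 1.27% of a cell's counts and were higher in both COP1 KO libraries. Pairs of libraries shared 22 to 40 barcodes. COP1 KO 1 stood apart from the other 3 libraries: leaving out COP1 KO 2 raised the genes called between genotypes in whole-library sums from 2 to 1151, whereas leaving out COP1 KO 1 gave 108 higher and 43 lower genes. Of 30 clusters, 8 named classes had at least 20 cells in every library. They included 8670 excitatory neuron-like cells, the most numerous class, and 848 ganglionic eminence progenitor-like, 1720 striatal projection neuron-like and 2346 cortical interneuron-like cells, so tissue or migrating cells of the ventral forebrain were in the samples too. The class called oligodendrocyte precursor-like was led by the choroid plexus gene Ttr as well as by Olig1 and Olig2, and it held 34 and 37 cells in the HET libraries against 112 and 138 in the COP1 KO libraries.

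Levels are given as counts scaled to a total of 1000000 (CPM) for each class in 1 library, as the mean ± SD over the 4 libraries (n = 4). The classes were made from these same cells, although without the 8 genes, so the order of classes is a description without a test. Neighbouring classes are called overlapping where the ranges of the 4 libraries overlap. Since all 4 libraries enter, each SD also contains the genotype difference.

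Rfwd2, the substrate-binding ligase itself, was highest in striatal projection neuron-like cells at 38.1 ± 5.97 CPM. Intermediate progenitor-like cells followed at 35.2 ± 6.33 CPM, excitatory neuron-like cells at 34.7 ± 3.28 CPM and cortical interneuron-like cells at 34.0 ± 4.45 CPM. Lower values were found in ganglionic eminence progenitor-like cells (28.9 ± 10.8 CPM), Cajal-Retzius-like cells (26.5 ± 7.15 CPM), radial glia-like cells (25.4 ± 6.45 CPM) and oligodendrocyte precursor-like cells (19.0 ± 6.21 CPM). The highest class was 2.01 times the lowest, and every neighbouring pair in this order overlapped. The order is that of means over both genotypes. Ganglionic eminence progenitor-like cells had a mean of 38.0 CPM in HET but 19.8 CPM in COP1 KO. In HET alone their mean lay above those of excitatory neuron-like (36.6 CPM) and cortical interneuron-like cells (33.7 CPM).

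Det1, which links COP1 to DDB1, had its highest level in ganglionic eminence progenitor-like cells at 24.5 ± 3.85 CPM. Radial glia-like cells had 23.3 ± 2.35 CPM and intermediate progenitor-like cells 21.4 ± 4.73 CPM. The neuron-like classes lay lower, at 18.1 ± 2.37 CPM in cortical interneuron-like, 17.4 ± 4.38 CPM in striatal projection neuron-like and 16.5 ± 0.965 CPM in excitatory neuron-like cells. Cajal-Retzius-like cells had 14.5 ± 4.76 CPM and oligodendrocyte precursor-like cells 14.4 ± 1.42 CPM, and again all neighbours overlapped.

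Ddb1, the adaptor between cullin and receptor, was likewise highest in the progenitor classes, with 199 ± 18.5 CPM in radial glia-like, 189 ± 27.0 CPM in intermediate progenitor-like and 185 ± 23.9 CPM in ganglionic eminence progenitor-like cells. Its level was 168 ± 18.9 CPM in Cajal-Retzius-like cells and 166 ± 21.4 CPM in oligodendrocyte precursor-like cells. Excitatory neuron-like cells had 150 ± 15.7 CPM, cortical interneuron-like cells 145 ± 14.8 CPM and striatal projection neuron-like cells 143 ± 13.9 CPM. All neighbours overlapped.

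Dda1, the small subunit that binds DDB1 and DET1, differed most between classes and did so with little spread between libraries. It was highest in Cajal-Retzius-like cells, with 347, 328, 347 and 332 CPM in HET 1, HET 2, COP1 KO 1 and COP1 KO 2. It was lowest in radial glia-like cells, with 133, 118, 114 and 129 CPM in the same order. The ratio of the highest to the lowest class was 2.74. Between them lay cortical interneuron-like cells at 266 ± 5.22 CPM, excitatory neuron-like cells at 255 ± 6.27 CPM and striatal projection neuron-like cells at 249 ± 10.8 CPM. Progenitors were lower, with 195 ± 22.4 CPM in intermediate progenitor-like and 179 ± 13.4 CPM in ganglionic eminence progenitor-like cells, and oligodendrocyte precursor-like cells had 125 ± 10.3 CPM. The libraries of 2 neighbouring classes did not overlap at 3 steps of this order: between Cajal-Retzius-like and interneuron-like cells, between striatal projection neuron-like and intermediate progenitor-like cells, and between ganglionic eminence progenitor-like and oligodendrocyte precursor-like cells.

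The same split was seen within classes made of several clusters. Both radial glia-like clusters, one of them led by genes of dividing cells, had 125 ± 10.9 and 122 ± 7.92 CPM of Dda1. The 9 excitatory neuron-like clusters ranged from 207 ± 11.8 to 289 ± 5.22 CPM, so that each lay above both radial glia-like clusters. Small non-neural classes were low as well when all libraries were pooled: 102 CPM in 92 fibroblast-like cells (95% Poisson interval 81.2 to 126), 108 CPM in 86 microglia or macrophage-like cells (83.5 to 138) and 104 CPM in 63 endothelial-like cells (87.0 to 122). These intervals cover counting error only. Cortical interneuron-like clusters ranged from 201 ± 22.7 CPM (cluster 17) to 298 ± 57.5 CPM (cluster 24). The libraries of cluster 17 (186 to 234 CPM) and of excitatory neuron-like cluster 1 (190 to 218 CPM) overlapped with those of intermediate progenitor-like cells (167 to 218 CPM). Neurons therefore did not lie above these progenitors in every cluster.

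Of the scaffolds, Cul4a was highest in intermediate progenitor-like cells at 64.8 ± 14.1 CPM and in radial glia-like cells at 63.6 ± 2.17 CPM. Ganglionic eminence progenitor-like cells had 50.4 ± 8.09 CPM and excitatory neuron-like cells 47.6 ± 3.15 CPM. Cajal-Retzius-like cells had 44.5 ± 9.73 CPM, oligodendrocyte precursor-like cells 44.5 ± 6.88 CPM, cortical interneuron-like cells 44.1 ± 8.96 CPM and striatal projection neuron-like cells 38.4 ± 4.20 CPM. Every neighbouring pair overlapped.

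Cul4b, the second scaffold, had its highest class means in ganglionic eminence progenitor-like (33.3 ± 6.88 CPM), radial glia-like (33.1 ± 4.82 CPM), oligodendrocyte precursor-like (32.4 ± 17.6 CPM), intermediate progenitor-like (31.2 ± 12.3 CPM) and cortical interneuron-like cells (26.4 ± 4.58 CPM). Striatal projection neuron-like cells at 17.9 ± 2.17 CPM came next, and this was the one neighbouring pair without overlap. Excitatory neuron-like cells had 17.1 ± 2.23 CPM and Cajal-Retzius-like cells 14.7 ± 10.1 CPM. Single libraries of other classes crossed this order. In oligodendrocyte precursor-like cells Cul4b was at 49.9 and 19.2 CPM in the HET libraries, from 14 and 6 counts, and at 15.4 and 44.9 CPM in the COP1 KO libraries, from 12 and 47 counts, and in Cajal-Retzius-like cells HET 1 was at 25.5 CPM.

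Cul4a made up 73.9%, 68.0%, 70.8% and 66.7% of the summed Cul4a and Cul4b counts of the HET 1, HET 2, COP1 KO 1 and COP1 KO 2 libraries. By class this share averaged 59.9% to 76.9%, and in excitatory neuron-like cells it was 73.6% ± 3.25 against 65.9% ± 3.55 in radial glia-like cells (SD, n = 4). The 2 genes may differ in how well their 3′ ends are captured, so the share is compared between classes only.

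Like Ddb1, Rbx1, the RING subunit that recruits the E2, had a highest class at 1.38 times its lowest. It ran from 489 ± 26.0 CPM in ganglionic eminence progenitor-like cells through 465 ± 30.7 CPM in Cajal-Retzius-like, 450 ± 24.0 CPM in intermediate progenitor-like, 422 ± 22.8 CPM in oligodendrocyte precursor-like, 418 ± 25.4 CPM in radial glia-like, 410 ± 18.2 CPM in cortical interneuron-like and 409 ± 14.6 CPM in excitatory neuron-like cells. Striatal projection neuron-like cells were lowest at 353 ± 30.3 CPM, without overlap with excitatory neuron-like cells, the next above.

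Ube2d3, an E2 that passes ubiquitin to RING ligases, ran opposite to Dda1. It was highest in ganglionic eminence progenitor-like cells at 299 ± 16.2 CPM and radial glia-like cells at 279 ± 15.6 CPM, followed by oligodendrocyte precursor-like cells at 259 ± 51.3 CPM and intermediate progenitor-like cells at 228 ± 22.5 CPM. Striatal projection neuron-like cells had 215 ± 16.5 CPM, cortical interneuron-like cells 208 ± 9.86 CPM, Cajal-Retzius-like cells 181 ± 24.5 CPM and excitatory neuron-like cells 176 ± 7.61 CPM. Neighbours overlapped at each step, but every radial glia-like library (259 to 297 CPM) lay above every excitatory neuron-like library (168 to 185 CPM).

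**Figure D1:**
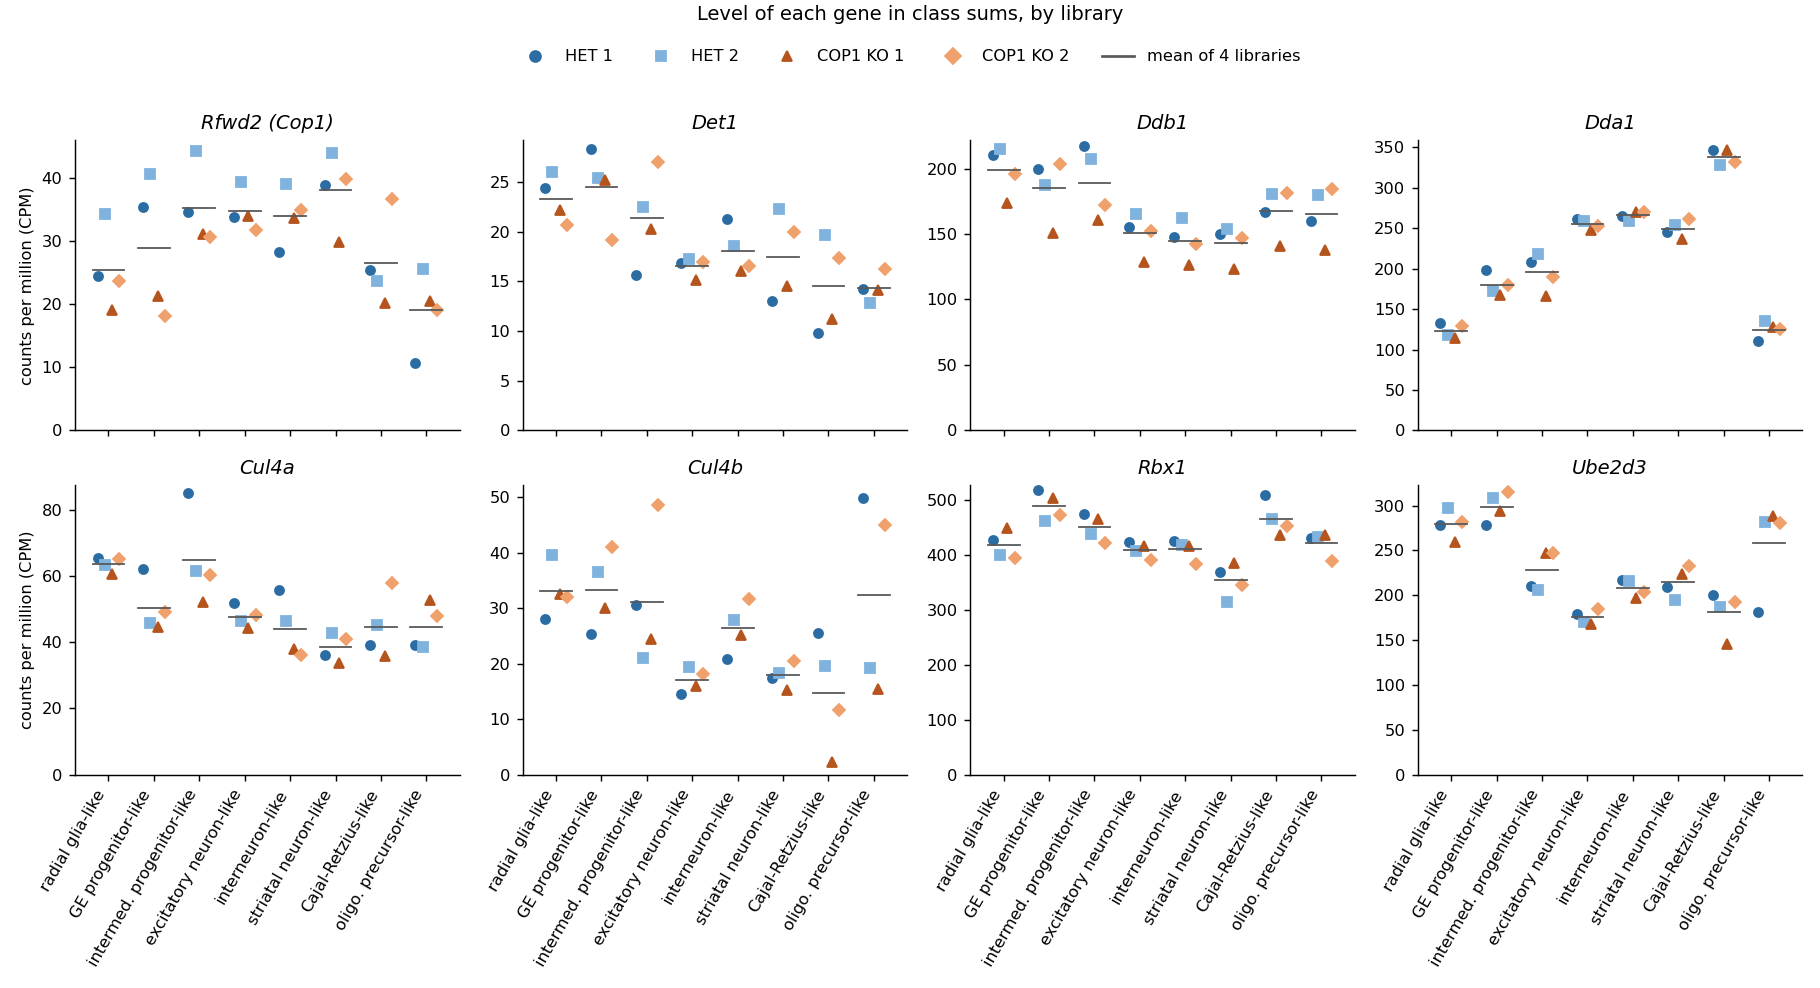
Level of each of the 8 genes (vertical axes, CPM, starting at 0) in the summed counts of 8 cell classes, with 1 point per library and a bar at the mean of 4 libraries; GE is ganglionic eminence. Dda1 rises from 123 CPM in radial glia-like to 339 CPM in Cajal-Retzius-like cells, while Ube2d3 and Cul4b are higher in progenitors than in excitatory neuron-like cells.

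Across the 8 class means, Dda1 and Ube2d3 had a Pearson correlation of -0.82 and Dda1 and Cul4b one of -0.80, whereas Ddb1 and Cul4a (0.85) and Cul4b and Ube2d3 (0.85) rose and fell together. The points share libraries and cells, and these are descriptions over 8 classes. Among 7637 genes with a mean class level of at least 20 CPM, those whose class pattern was most like that of Rfwd2 on the log2(CPM + 1) scale were Mnt (r = 0.99), Snhg17 (r = 0.99) and Pdcd2 (r = 0.98). The gene most like Dda1 was Celf6 (r = 0.99), and for Ube2d3 it was Ppp4c (r = 0.996). Gtf2h2 was nearest to Det1, Nek1 to Ddb1, Fam210b to Cul4a, Spag9 to Cul4b and Wbp2 to Rbx1, the last at r = 0.92. With 8 points, 132 genes reached r above 0.9 with Rfwd2 and 285 with Dda1, against 2 with Rbx1.

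Few cells held a molecule of the scarcer genes. After cells were thinned to 2000 UMIs, leaving out 0 and 0 shallower cells of the HET libraries and 139 and 22 of the COP1 KO libraries, Rfwd2 was seen in 6.34% and 7.63% of cells of the HET libraries and in 5.85% and 6.29% of cells of the COP1 KO libraries. Without thinning the same shares were 17.05%, 21.4%, 14.3% and 15.7%. Over the 4 libraries the mean thinned share was 3.40% for Det1, 4.34% for Cul4b and 9.69% for Cul4a, and it was 26.3% for Ddb1, 33.5% for Ube2d3, 36.8% for Dda1 and 55.9% for Rbx1. The unthinned means were 9.36%, 11.3% and 23.9% for the first 3, and 54.1%, 63.9%, 67.1% and 84.7% for the other 4. No class here is known to lack these genes, so the part of such shares that comes from free RNA in the droplets was not measured.

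The first comparison between genotypes asked whether any gene of the complex differed between COP1 KO and HET in the summed counts of whole libraries. Rfwd2 was measured at 32.0 CPM in HET 1, 39.2 in HET 2, 30.6 in COP1 KO 1 and 29.7 in COP1 KO 2. Both COP1 KO libraries lay below both HET libraries, but HET 1 was closer to them than to HET 2. The log2 change was -0.22 (SE 0.112, adjusted p = 0.531 by edgeR's quasi-likelihood test with Benjamini-Hochberg adjustment). A 3′ count includes any transcript that keeps its 3′ end, and the deleted part is not given, so these values neither check the genotype labels nor measure functional COP1.

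Ddb1 stood at 160, 170, 134 and 156 CPM in HET 1, HET 2, COP1 KO 1 and COP1 KO 2, and its log2 change was -0.17 (SE 0.073 and adjusted p by edgeR = 0.493). Dda1 had 243 and 238 CPM in the HET libraries against 226 and 231 CPM in the COP1 KO libraries, a log2 change of -0.05 (SE 0.041). Det1 had 16.8 and 18.4 CPM against 16.0 and 16.7 CPM, a log2 change of -0.08 (SE 0.092). The groups did not overlap for any of these adaptor genes, yet no change was called, with edgeR adjusted p of 0.673 for Dda1 and 0.749 for Det1.

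Cul4a was found at 52.9 and 48.4 CPM in the HET libraries and at 46.0 and 48.4 CPM in the COP1 KO libraries, a log2 change of -0.08 (SE 0.070). Cul4b had 18.7 and 22.8 CPM against 19.0 and 24.1 CPM, a log2 change of 0.08 (SE 0.149) with the libraries of the genotypes interleaved. Rbx1 had 422 and 402 CPM against 420 and 390 CPM, and Ube2d3 had 199 and 199 CPM against 197 and 211 CPM, so that the 2 catalytic partners overlapped between genotypes too. Their log2 changes were 0.00 (SE 0.065) and 0.06 (SE 0.043).

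None of the 8 genes passed an adjusted p of 0.05 in whole-library sums, with adjusted p from 0.493 to 0.992 by edgeR, 0 genes under an unadjusted p of 0.05 and 0 called by DESeq2. Over all 16977 genes tested, 0.0118% were called and 1786 had an unadjusted p under 0.05 by edgeR, while DESeq2 called 130 higher and 45 lower of 15002. For 5 of the 8 genes both COP1 KO libraries lay below both HET libraries, and this held for 26.3% of all genes tested. With 2 libraries against 2, an exact permutation test of 1 gene cannot give a two-sided p below 0.333, and the p-values here rest on the spread that edgeR pools over genes.

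The second comparison asked the same within each class. Of 64 pairs of gene and class, 62 could be tested, Det1 being too low in Cajal-Retzius-like and oligodendrocyte precursor-like cells. None was called by edgeR or by DESeq2, the edgeR adjusted p ran from 0.281 to 0.9997, and 5 pairs had an unadjusted p under 0.05. Over all genes tested, such an edgeR p was found for 625 of 10340 in striatal projection neuron-like cells, the lowest share of the classes. It was found for 1732 of 11560 in radial glia-like cells, the highest share. The 5 of 62 pairs lie within that range and are not a result about the complex. Among all genes tested, the share called was 0.0134% in Cajal-Retzius-like, 0.00915% in cortical interneuron-like, 0.0% in excitatory neuron-like and 0.00967% in striatal projection neuron-like cells. It was 0.13% in ganglionic eminence progenitor-like, 0.747% in intermediate progenitor-like, 0.186% in oligodendrocyte precursor-like and 2.94% in radial glia-like cells. Beside shares of 2.94% or less, no call among 8 genes is near the share over all genes and is not a result about the complex.

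**Figure D2:**
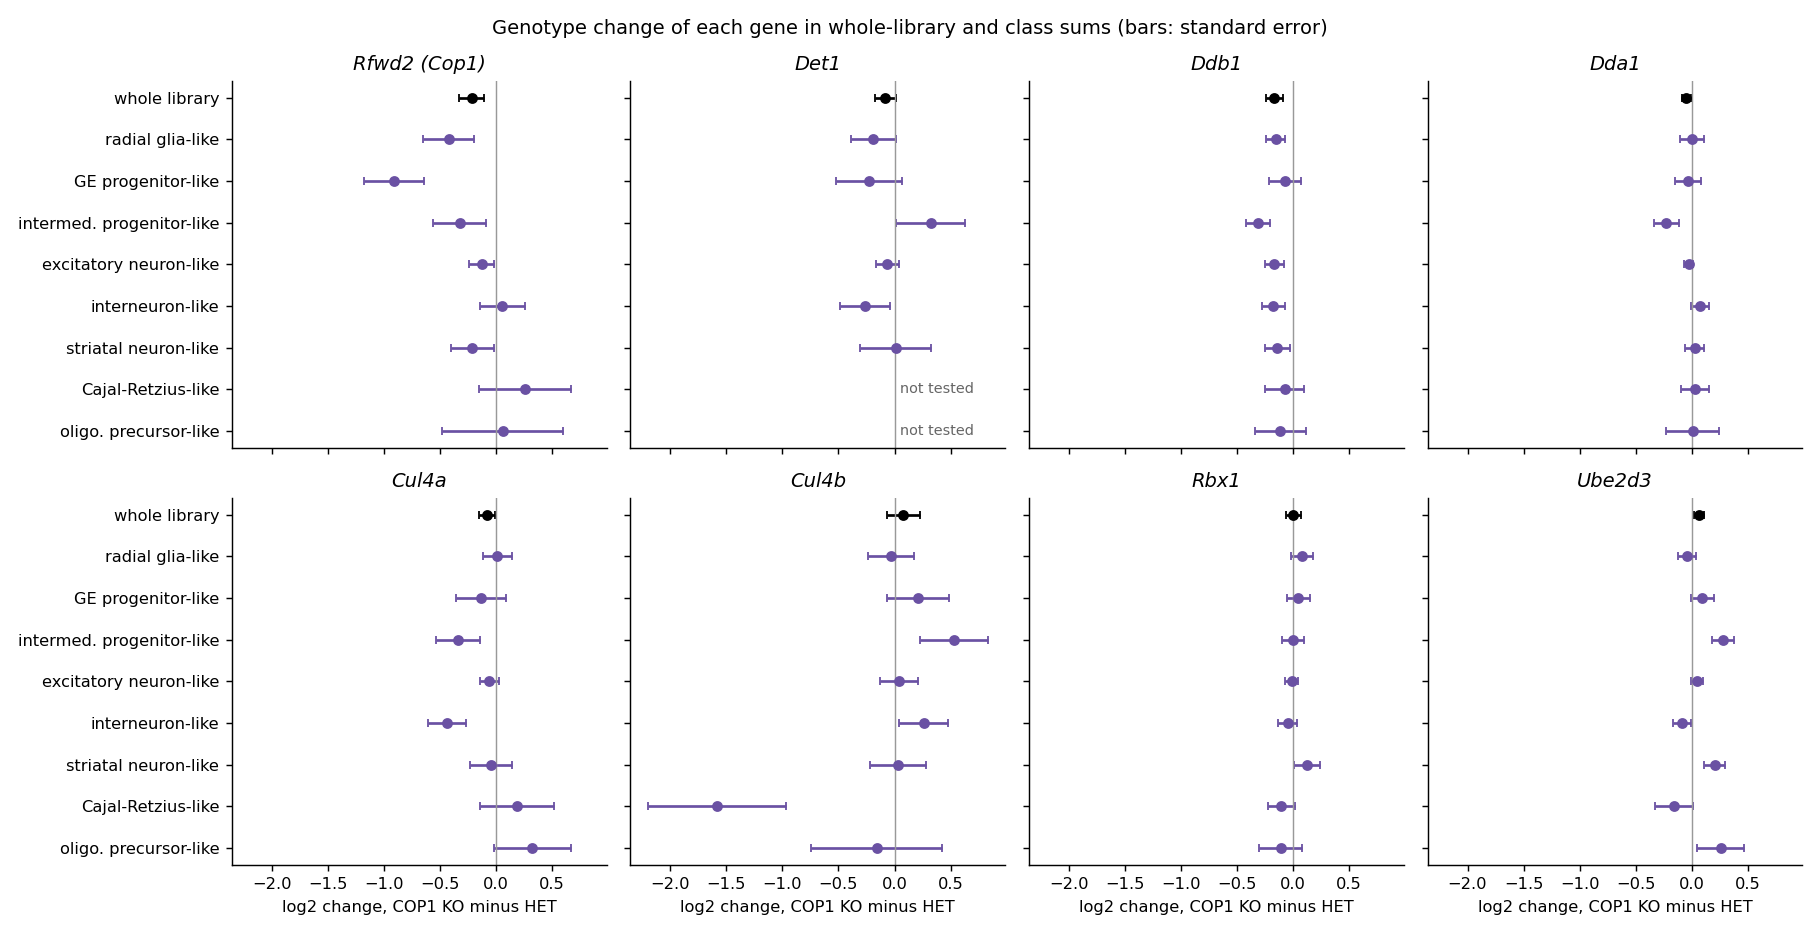
Log2 change from HET to COP1 KO (horizontal axes) of each gene in whole-library sums (black) and in 8 class sums (purple), with bars of 1 standard error from edgeR; 2 pairs of Det1 were not tested. The Rfwd2 points lie furthest to the left in ganglionic eminence progenitor-like cells (-0.91), and those of Ddb1 are all below 0.

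By summed counts in the tested classes, the lowest Rfwd2 values of the COP1 KO libraries relative to HET were in progenitors. In ganglionic eminence progenitor-like cells Rfwd2 was at 35.3 and 40.7 CPM in the HET libraries, from 25 and 40 counts, and at 21.3 and 18.2 CPM in the COP1 KO libraries, from 22 and 20 counts. The groups were well apart, with a log2 change of -0.91 (SE 0.266), an unadjusted p of 0.0063 and an adjusted p of 0.389 by edgeR, so that it was not called. Thinned to 2000 UMIs, with 3 and 2 shallower COP1 KO cells left out, 6.25% and 6.28% of these cells held a molecule in the HET libraries and 4.26% and 3.85% in the COP1 KO libraries.

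In radial glia-like cells Rfwd2 was at 24.4 and 34.3 CPM in HET and at 19.0 and 23.7 CPM in COP1 KO, with HET 1 only just above COP1 KO 2. Its log2 change was -0.42 (SE 0.230 and adjusted p by edgeR = 0.441), and without HET 2 it was -0.14. The thinned shares of cells overlapped, at 3.99% and 4.47% in HET against 3.74% and 4.38% in COP1 KO. Rfwd2 was among 3 of the 8 genes with both COP1 KO libraries lower in this class, as were 27.9% of all genes tested there. In intermediate progenitor-like cells the values were 34.6 and 44.3 CPM against 31.2 and 30.6 CPM, a log2 change of -0.32 (SE 0.236 and adjusted p by edgeR = 0.699).

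By summed counts, neurons showed smaller differences in Rfwd2. Excitatory neuron-like cells, which had the most counts, held 33.8 and 39.4 CPM of Rfwd2 in HET and 33.9 and 31.7 CPM in COP1 KO, a log2 change of -0.13 (SE 0.110) with overlapping groups. The log2 change was -0.21 (SE 0.191) in striatal projection neuron-like cells, where COP1 KO 1 at 29.8 CPM was low and the other 3 libraries lay between 38.9 and 44.0 CPM. Cortical interneuron-like cells had 0.06 (SE 0.201), Cajal-Retzius-like cells 0.26 (SE 0.412) and oligodendrocyte precursor-like cells 0.06 (SE 0.537), the last from 3, 8, 16 and 20 counts. For these 3 classes the sign depended on which library was left out. Thinned shares of cells ordered the classes otherwise. Cajal-Retzius-like cells, 56 to 67 per library before thinning, held Rfwd2 in 10.45% and 8.93% of HET cells. The COP1 KO shares were 1.59% and 3.23%. These shares come from a single random draw over few cells. The summed counts there were 13 and 12 in the HET libraries against 9 and 19 in the COP1 KO libraries. COP1 KO 2 had the highest level of the class at 36.7 CPM, so the summed counts did not show a fall. Both COP1 KO shares were lower than both HET shares in excitatory neuron-like and striatal projection neuron-like cells. In oligodendrocyte precursor-like cells the shares were 5.88% and 13.5% in HET against 3.64% and 5.80% in COP1 KO. HET 1 and COP1 KO 2 were thus nearly equal there. The COP1 KO shares overlapped with HET in intermediate progenitor-like and cortical interneuron-like cells.

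The Rfwd2 change of radial glia-like cells was set against that of excitatory neuron-like cells in 1 fit over both classes that blocked on the library. The difference of the changes was -0.28 (SE 0.205 and adjusted p by edgeR = 0.708), and none of the 8 genes passed, with adjusted p from 0.688 to 0.984 and 0 genes under an unadjusted p of 0.05. Such a difference was called for 2.04% of 14832 genes, and an unadjusted p under 0.05 by edgeR was found for 1592.

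Among the clusters of the 8 classes and the 3 unnamed clusters, the gap between genotypes was widest in 3 clusters of progenitors, picked out after their values were seen and therefore given without a test. In the radial glia-like cluster without cell-cycle genes at its head (cluster 9) Rfwd2 was at 30.1 and 30.8 CPM in HET and at 18.1 and 19.0 CPM in COP1 KO. In the larger ganglionic eminence progenitor-like cluster (cluster 14) it was at 39.0 and 39.5 CPM against 19.9 and 18.0 CPM. An unnamed cluster of dividing cells (cluster 21), whose markers came closest to intermediate progenitors, had 39.6 and 50.7 CPM against 16.4 and 23.5 CPM, from 24, 23, 10 and 10 counts. The second radial glia-like cluster (cluster 16), led by cell-cycle genes, did not separate, with 19.8 and 37.6 CPM in HET against 20.3 and 28.6 CPM in COP1 KO. Nor did the smaller ganglionic eminence progenitor-like cluster (cluster 22), with 23.6 and 44.7 CPM against 25.2 and 19.0 CPM. Outside these clusters, the small endothelial-like cluster (cluster 27) had 44.0 and 31.8 CPM against 17.4 and 12.2 CPM. These came from 11, 12, 8 and 3 counts, so a wide gap was not confined to progenitors.

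**Figure D3:**
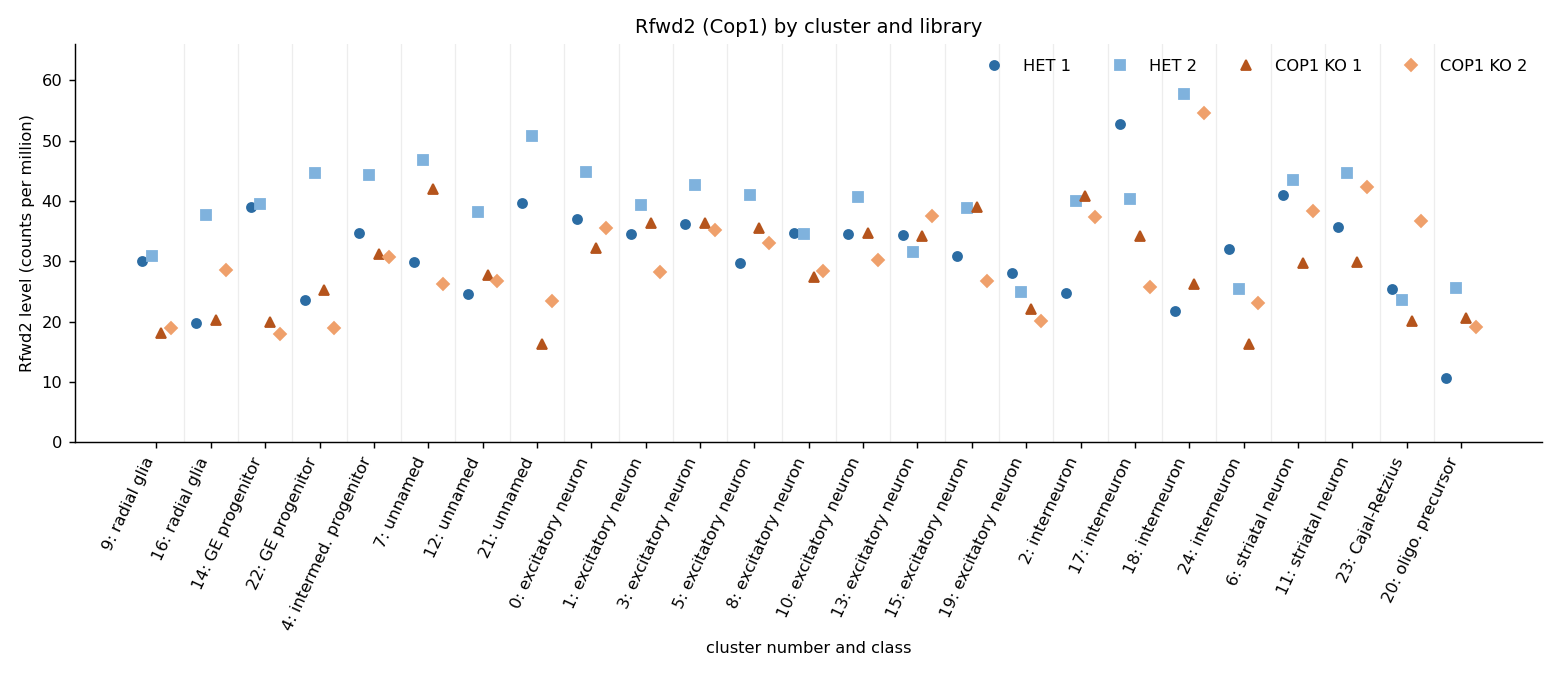
Rfwd2 level (vertical axis, CPM, starting at 0) in each cluster of the 8 classes and in 3 unnamed clusters (horizontal axis, cluster number and class; GE is ganglionic eminence), with 1 point per library. The gap between the COP1 KO points and the HET points above them is widest in clusters 9, 14 and 21.

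Ddb1 had a log2 change below 0 in 8 of 8 classes, and COP1 KO 1 was its lowest library in each of them. The classes come from the same 4 libraries, and without COP1 KO 1 the sign turned in Cajal-Retzius-like (0.070), ganglionic eminence progenitor-like (0.11) and oligodendrocyte precursor-like cells (0.089). In intermediate progenitor-like cells Ddb1 was at 217 and 207 CPM in HET against 161 and 172 CPM in COP1 KO. Both COP1 KO libraries were lower there, with a log2 change of -0.32 (SE 0.109), an unadjusted p of 0.0093 and an adjusted p of 0.281 by edgeR. In radial glia-like cells it was at 210 and 215 CPM against 174 and 196 CPM, a log2 change of -0.16 (SE 0.085 and adjusted p by edgeR = 0.440). In excitatory neuron-like cells the values were 156 and 166 CPM against 128 and 152 CPM, a log2 change of -0.17 (SE 0.081 and adjusted p by edgeR = 0.559).

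In whole-library and excitatory neuron-like sums the size of the Ddb1 difference followed 1 library. Without COP1 KO 2, so with COP1 KO 1 alone against both HET libraries, Ddb1 was called in whole-library sums (log2 change -0.26, edgeR adjusted p = 0.0447) together with 6.59% of all genes, and in excitatory neuron-like sums (-0.28, edgeR adjusted p = 0.0257) together with 6.99% of all genes. Without COP1 KO 1 the log2 changes were -0.08 and -0.07, and neither was called (edgeR adjusted p = 0.706 and 0.785). The single remaining library is assumed in such a fit to vary like the others. COP1 KO 1 also had the lowest median UMIs per cell, and the part of depth in this difference was not tested. Single clusters did not all follow COP1 KO 1, although it lay below COP1 KO 2 in most of them. In the unnamed cluster 21 Ddb1 was at 250.9 and 240.3 CPM in HET against 137.5 and 131.3 CPM in COP1 KO. In excitatory neuron-like cluster 3 the values were 179 and 168.5 CPM against 140.8 and 128.3 CPM. Both clusters were picked out after their values were seen and were not tested.

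The other genes gave single pairs with a low unadjusted p and no call. Ube2d3 in intermediate progenitor-like cells was at 210 and 206 CPM in HET and at 248 and 247 CPM in COP1 KO, both higher, with a log2 change of 0.28 (SE 0.098) and an adjusted p of 0.285 by edgeR. Cul4a in cortical interneuron-like cells was at 55.7 and 46.5 CPM against 37.9 and 36.2 CPM, both lower, with a log2 change of -0.44 (SE 0.168) and an edgeR adjusted p of 0.643. Cul4b in Cajal-Retzius-like cells had 25.5 and 19.7 CPM against 2.24 and 11.6 CPM, from 13, 10, 1 and 6 counts. Its log2 change of -1.59 (SE 0.616 and adjusted p by edgeR = 0.750) therefore rests on very few molecules, and it was -0.94 without COP1 KO 1 and -3.16 without COP1 KO 2. This pair passed the filter on low counts through the HET libraries, where the gene was higher. A fall was thereby favoured in advance, so its low unadjusted p is no support for one. Over the tested pairs of Det1, Dda1 and Rbx1 no unadjusted p fell under 0.05.

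The wider pathway was read from 6 lists with 66 genes, none of them among the 8. In whole-library sums 0 of 65 tested genes passed edgeR's test, with 6 under an unadjusted p of 0.05, whereas DESeq2 called Trib1. Over all genes tested there, 1786 of 16977 had an unadjusted p under 0.05 by edgeR. DESeq2 called 130 higher and 45 lower of 15002. In excitatory neuron-like sums 0 of 64 were called by edgeR and 0 by DESeq2, with 5 under an unadjusted p of 0.05. Over all genes tested in that class, 1324 of 14275 were under this p by edgeR. In radial glia-like sums 3 of 63 rose and none fell, beside 2.94% of all genes called in either direction there, so the count itself is not a result about the lists. The 3 were Trib1, Trib2 and Dcaf4, and DESeq2 called the same 3.

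Of the COP1 adaptors, Trib1, a pseudokinase that carries C/EBP proteins to COP1, was at 51.9 and 49.3 CPM in HET and at 259 and 212 CPM in COP1 KO radial glia-like cells. All COP1 KO values were far above the HET values, with a log2 change of 2.27 (SE 0.133) and an edgeR adjusted p of 5.58e-05. In excitatory neuron-like cells Trib1 had 14.4 and 16.6 CPM against 16.8 and 17.4 CPM, a log2 change of 0.17 (SE 0.116 and adjusted p by edgeR = 0.649). Between the 2 classes the log2 changes differed by 2.10 (SE 0.153 and adjusted p by edgeR = 1.99e-09).

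Trib2, its relative, was at 95.5 and 80.1 CPM in HET and at 127 and 156 CPM in COP1 KO radial glia-like cells, a log2 change of 0.74 (SE 0.129 and adjusted p by edgeR = 0.0165). This call was lost without HET 2 (adjusted p = 0.142). Trib2 changed more in radial glia-like than in excitatory neuron-like cells by 0.50 (SE 0.123 and adjusted p by edgeR = 0.0280), a call lost without HET 2 (adjusted p = 0.184) or without COP1 KO 2 (adjusted p = 0.338). Trib3 was too low to be tested in either class. The list's median log2 change was 1.5 in radial glia-like cells, against 0.00 over all genes tested. It comes from Trib1 and Trib2 alone, the 2 tested adaptors, and adds nothing to their values.

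Of 21 CUL4 substrate receptors tested in radial glia-like cells, 1 rose, beside the 2.94% called over all genes. Dcaf4, a WD40 protein that binds DDB1, was at 36.3 and 38.3 CPM in HET and at 71.9 and 66.8 CPM in COP1 KO, both COP1 KO libraries higher, with a log2 change of 0.94 (SE 0.148 and adjusted p by edgeR = 0.0102). The call was lost without HET 1 (adjusted p = 0.0716) or HET 2 (adjusted p = 0.0605), with values of 0.90 and 0.98. Excitatory neuron-like cells had 39.5 and 40.1 CPM against 42.9 and 42.9 CPM, and the 2 changes differed by 0.81 (SE 0.146 and adjusted p by edgeR = 0.00128). The median over the receptors in radial glia-like cells was 0.00.

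No gene of the remaining 4 lists passed in radial glia-like cells. Among E2 enzymes related to UBE2D3, Ube2d1 had 106 and 101 CPM in HET against 124 and 125 CPM in COP1 KO (log2 change 0.32, edgeR adjusted p = 0.166). Ube2e1 had 172 and 175 CPM against 198 and 201 CPM (0.25, adjusted p = 0.182), and Cdc34 37.9 and 48.9 CPM against 76.5 and 48.8 CPM (0.57, adjusted p = 0.291), where only COP1 KO 1 was high. The median log2 change of the 8 tested E2 genes was 0.16.

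The COP9 signalosome removes NEDD8 from cullins. Its catalytic subunit gene Cops5 was at 158 and 161 CPM against 182 and 190 CPM (log2 change 0.27, edgeR adjusted p = 0.157). Cops7b stood at 33.7 and 33.9 CPM against 46.1 and 44.4 CPM (0.47, adjusted p = 0.206), and Myeov2 at 341 and 315 CPM against 377 and 346 CPM (0.19, adjusted p = 0.355). The median over its 10 genes was 0.04.

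Of the 13 genes for neddylation and cullin exchange, the lowest value was that of Dcun1d4, a co-factor of NEDD8 ligation, at 25.4 and 27.3 CPM in HET and 8.14 and 15.4 CPM in COP1 KO (log2 change -1.11, edgeR adjusted p = 0.0829). Cand1, which exchanges cullin receptors, had 92.9 and 81.9 CPM against 57.9 and 78.2 CPM (-0.31, adjusted p = 0.384), with COP1 KO 1 lowest. Ube2f, a NEDD8 E2, had 69.0 and 77.0 CPM against 61.1 and 64.2 CPM (-0.18, adjusted p = 0.589). The list's median was -0.16. Among other cullin-RING core genes, Cul1 had a log2 change of -0.16, Skp1a one of 0.05 and Tceb2 one of 0.07, with a list median of 0.00.

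**Figure D4:**
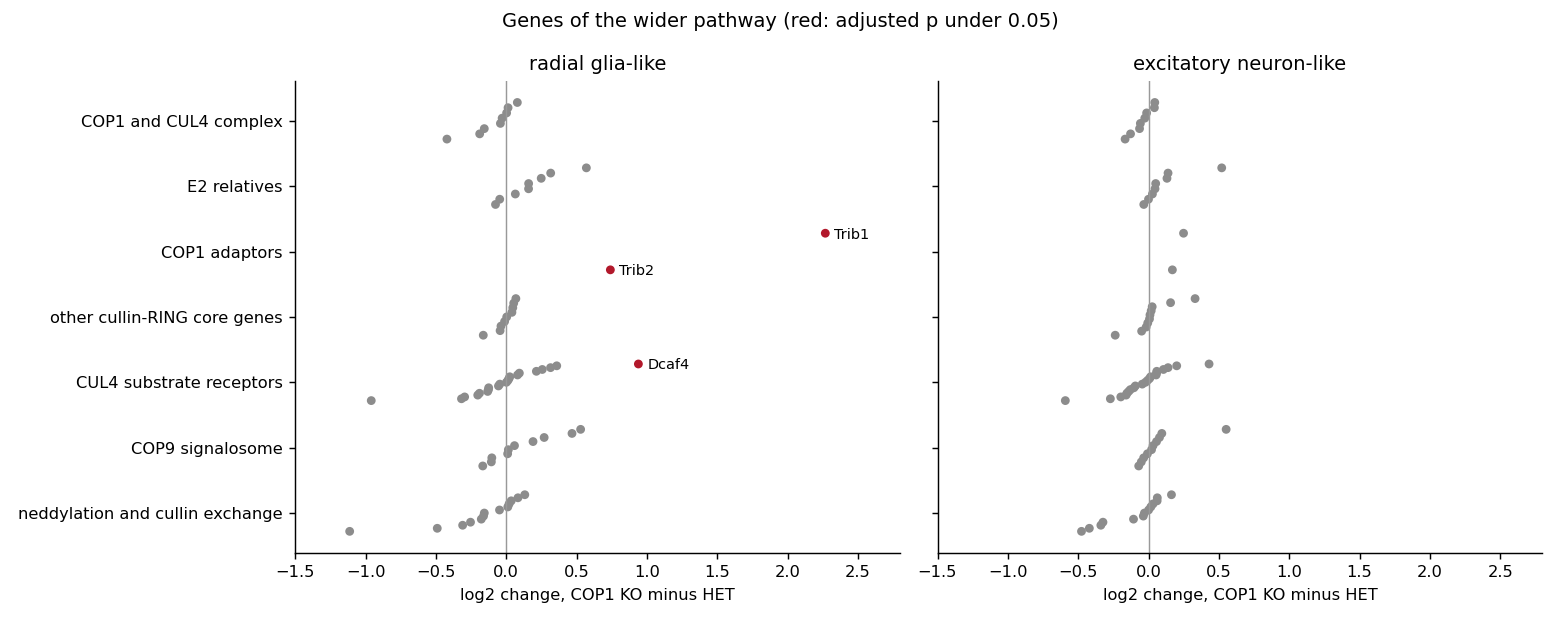
Log2 change from HET to COP1 KO (horizontal axes) of the 8 genes of the complex and of the genes of 6 pathway lists in radial glia-like and excitatory neuron-like sums; each point is 1 gene and red marks an edgeR adjusted p under 0.05. Trib1, Trib2 and Dcaf4 are the called genes, all in radial glia-like cells, and the genes of the complex lie between -0.42 and 0.08 there.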

How the data were processed

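The authors deposited 1 table of raw UMI counts per gene and cell for each library; per the labels' protocols, E16.5 cortex was dissociated with papain and libraries were made with a 10x 3′ kit and sequenced in 1 lane each. The submitters' processing notes name GSNAP and GRCm38 (mm10), and strand handling is not given in the sources used here. From these counts, 367 rows that copied another row were removed, cells with at least 500 genes and at most 10% mitochondrial counts were kept, and 231 cells with a doublet score above 0.25 were dropped, since the automatic threshold marked only 0.32%. Clusters (scanpy 1.11.5, leidenalg 0.10.2, 2000 variable genes without the 8 genes, resolution 1) were named from marker lists; the thresholds for naming were set after the data were seen. Raw counts were summed per library and class and tested with edgeR 4.0.16 (TMM, quasi-likelihood, Benjamini-Hochberg over all genes tested, threshold 0.05), with DESeq2 1.42.0 as an alternative, and the fits were tested on simulated data. All 8 genes are named throughout. Of each pathway list the called genes are named, or otherwise the 3 with the smallest p in radial glia-like cells. The genes and lists were chosen with earlier results of these data known. Other alternatives were normalization, filters, left-out libraries, cell filters, clustering resolution and thinning.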

Additional observations from a re-analysis of the deposited data

Results flagged for a closer look

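For 3 genes of the pathway lists the genotype change in radial glia-like cells differed from that in excitatory neuron-like cells by the class-by-genotype term of edgeR's quasi-likelihood test. The difference of the log2 changes was 2.10 for Trib1 (SE 0.153, adjusted p = 1.99e-09), 0.50 for Trib2 (SE 0.123, adjusted p = 0.0280) and 0.81 for Dcaf4 (SE 0.146, adjusted p = 0.00128). In radial glia-like cells, Trib1, Trib2 and Dcaf4 were each higher in 2 of 2 COP1 KO libraries than in both HET libraries. None of the 8 genes of the complex met this criterion.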

How the results depend on the processing

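No paired analysis was possible because the labels give no replicate numbers and the numbers used here only name the libraries. The Rfwd2 log2 change kept its sign in whole-library (-0.35 to -0.06 with 1 library left out) and radial glia-like sums (-0.63 to -0.14). Genes of the complex called ranged from 0 to 1 in whole-library sums with 1 library left out, and pairs called from 0 to 1 in class sums; the single call in each was Ddb1. Pathway genes called ranged from 0 to 10 in whole-library, from 1 to 7 in radial glia-like and from 0 to 8 in excitatory neuron-like sums, each highest without COP1 KO 2, where 6.59%, 8.12% and 6.99% of all genes tested were called, and DESeq2 called 1 in whole-library sums. The cause was not tested.

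Reversals concerned changes smaller than their standard error. Rbx1 in whole-library sums was -0.00014 with RLE size factors, -0.023 with library totals alone, -0.00011 without a filter on low counts, -0.00018 by DESeq2 and -0.0046 over every barcode, and ran from -0.073 to 0.072 with 1 library left out. Likewise with 1 library left out, Cul4b in whole-library sums ran from -0.084 to 0.228. Rfwd2 ran from -0.24 to 0.58 in Cajal-Retzius-like (-0.033 at resolution 2), -0.17 to 0.30 in cortical interneuron-like and -0.33 to 0.81 in oligodendrocyte precursor-like cells. Ddb1 ran from -0.26 to 0.070 in Cajal-Retzius-like (0.15 at resolution 2, 0.10 with doublets kept), -0.29 to 0.11 in ganglionic eminence progenitor-like and -0.33 to 0.089 in oligodendrocyte precursor-like cells (0.022 without a filter). Of 192 class levels recomputed, 182 moved by less than 1 SD; Dda1 in Cajal-Retzius-like cells was 295 CPM at resolution 2 and 291 CPM with doublets kept.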
